A study of Mus musculus with 24 samples.

Results

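Homologous recombination, the Fanconi pathway and mismatch repair are the routes by which a cell copies sequence back into a broken chromosome, unhooks crosslinked strands and corrects copying errors. The account below follows 36 genes of these routes and of the checkpoint that reads them, in C2C12 myotubes, which are fused, contractile cells grown from a mouse muscle myoblast line. The genes were chosen by symbol, with Mre11 accepted for Mre11a, and all 36 were found among the 55487 genes listed. Each of them also passed the filter on low values (a normalised count of at least 10 in at least 6 libraries), as did 14541 genes in all.

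The libraries came from wild-type C2C12 myotubes at day 5 of differentiation, and every group shared differentiation under 5 % O2. The 24 libraries formed 4 groups of 6. The 5 % CTRL group stayed at 5 % O2 without stimulation, the 1 % CTRL group spent 2 h at 1 % O2 without stimulation, and the 5 % STIM and 1 % STIM groups were electrically stimulated after 2 h at 5 % or 1 % O2. By the study's account the stimulated cells were collected immediately after stimulation, and their medium was replaced before and after it. It does not say whether the CTRL groups had the later medium change. The comparisons address how low oxygen, contraction and their combination act on the transcripts of muscle cells. The study's methods call the libraries of a group biological replicates without saying what set them apart, such as the passage or day of culture, and the p-values measure the spread between them.

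As background, homologous recombination works mainly in S and G2, when a sister chromatid can serve as template. An end is resected to a single-stranded tail, mediators load the recombinase onto it, and helicases and translocases complete or dissolve the joint. Fanconi proteins recognise crosslinked DNA, mark the FANCD2 and FANCI pair with ubiquitin and hand the lesion to the same mediators. Most myotube nuclei have left the cell cycle, and many genes of these routes are known targets of the E2F factors, which drive genes at the entry to S phase.

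The start regions of the members are shown first because their transcripts moved together under low oxygen. RefSeq start sites in GRCm38.p6 were found for 28 of the 36 members, and the 250 bases before each annotated start were searched on both strands for 5 short motifs. The heptamer GCGGGAA, a core of sites bound by E2F factors, stood before 6 of the 28 members, against 4.38 % of 27025 genes with a start in the same table. Of the members with a sequence, 24 rose under 1 % O2 in resting myotubes and 4 did not. The heptamer stood before 6 of the former and 0 of the latter. With 4 members that did not rise, this split and those below cannot show a link between a motif and the rise. The 6 members with the heptamer had log2 fold changes at rest from 0.32 in Fancm to 0.98 in Fancg. The median of all 36 members was 0.71. Each window is printed in the direction of the gene, with the heptamer or its reverse complement in capitals.
Bard1, chr1:71103164-71103190, minus strand: gccgctcagtTTCCCGCtcaggaagtt
Brca2, chr5:150522443-150522469, plus strand: ttaggccacaGCGGGAAacagacacac
Chek2, chr5:110839821-110839847, plus strand: gggattagccGCGGGAAaccaagacgt
Fancb, chrX:164980410-164980436, plus strand: cggggtagagGCGGGAAtaagtgctct
Fancg, chr4:43010336-43010362, minus strand: tcttttcagtTTCCCGCggaaccgtct
Fancm, chr12:65075539-65075565, plus strand: accaatcatcTTCCCGCcgcaaaatcg
The first base of the match lies 208 bases before the start in Bard1, 168 in Brca2, 152 in Chek2, 172 in Fancb, 51 in Fancg and 54 in Fancm.

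A longer E2F site, TTTGGCGC, was found before Msh3 alone, against 0.485 % of all genes. The core of the hypoxia response element, ACGTG, stood before 8 of the 28 members (28.6 %), 7 of the 24 that rose and 1 of the other 4, against 18.5 % of all genes. The CCAAT box stood before 17 members (60.7 %), 13 of the 24 that rose and all of the other 4, against 37.5 % of all genes. The motif TTTGAA, a cell cycle homology region, stood before Bard1 alone, against 18.3 % of all genes. These are matches of letters in a fixed window, and a gene with several annotated starts had more sequence to match. The matches shown in capitals do not overlap one another.

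The 250 bases before the start are printed for Brca1 and Brip1, the 2 members that rose most at rest among those with a RefSeq start within 50 bases of the gene's annotated start, and for Rad51b, which fell. Capitals mark every match to the 5 motifs on either strand.
Brca1, chr11:101551956-101552205, minus strand: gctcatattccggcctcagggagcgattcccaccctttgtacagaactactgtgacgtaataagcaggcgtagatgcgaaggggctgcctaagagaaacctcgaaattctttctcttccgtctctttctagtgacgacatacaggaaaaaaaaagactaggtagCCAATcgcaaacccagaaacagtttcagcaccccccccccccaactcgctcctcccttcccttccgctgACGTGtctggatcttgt
Brip1, chr11:86201194-86201443, minus strand: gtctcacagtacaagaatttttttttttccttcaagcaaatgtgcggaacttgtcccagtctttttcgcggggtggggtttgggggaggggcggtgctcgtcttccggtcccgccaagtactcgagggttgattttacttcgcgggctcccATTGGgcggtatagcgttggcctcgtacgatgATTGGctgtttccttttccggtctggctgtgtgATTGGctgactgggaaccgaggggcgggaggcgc
Rad51b, chr12:79297032-79297281, plus strand: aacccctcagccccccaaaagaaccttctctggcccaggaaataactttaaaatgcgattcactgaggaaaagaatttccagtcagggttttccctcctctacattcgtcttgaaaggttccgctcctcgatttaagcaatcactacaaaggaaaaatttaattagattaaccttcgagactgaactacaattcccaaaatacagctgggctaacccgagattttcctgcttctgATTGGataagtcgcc
The Brca1 stretch holds 1 CCAAT box and 1 ACGTG, the latter 17 to 13 bases before the start. The Brip1 stretch holds 3 CCAAT boxes, all on the other strand, and the Rad51b stretch holds 1.

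Values are normalised read counts, that is, reads per gene divided by the size factor of the library, from libraries of 26541858 to 28173745 reads. Set per kb of exon, the members spanned a wide range of levels in 5 % CTRL. Nbn, a subunit of the complex that senses broken ends, was highest at 321 ± 25.8 normalised counts per kb (SD, n = 6), and Msh6, a mismatch recognition subunit, followed at 185 ± 9.44. Fanca, a Fanconi core subunit, was lowest at 4.80 ± 1.06, next to Palb2 at 4.88 ± 0.919. Of the 35 neighbouring pairs in this order, 30 had overlapping values and 5 did not, namely Nbn above Msh6, Rad50 above Fance, Topbp1 above Rad51d, Atm above Rbbp8 and Rbbp8 above Xrcc3.

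One library stood apart and touches the results below. In 1 % CTRL replicate 1, longer genes were higher than in the other libraries, with a slope of 0.0945 log2 units per doubling of exon length against -0.0367 to 0.0550 elsewhere. It exceeded the mean of the other 5 libraries of its group for 33 of the 36 members, by a median of 0.28 on the log2 scale, and was the highest library of its group for 28. Counts of called members that rest on it are given with and without it.

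**Figure D1:**
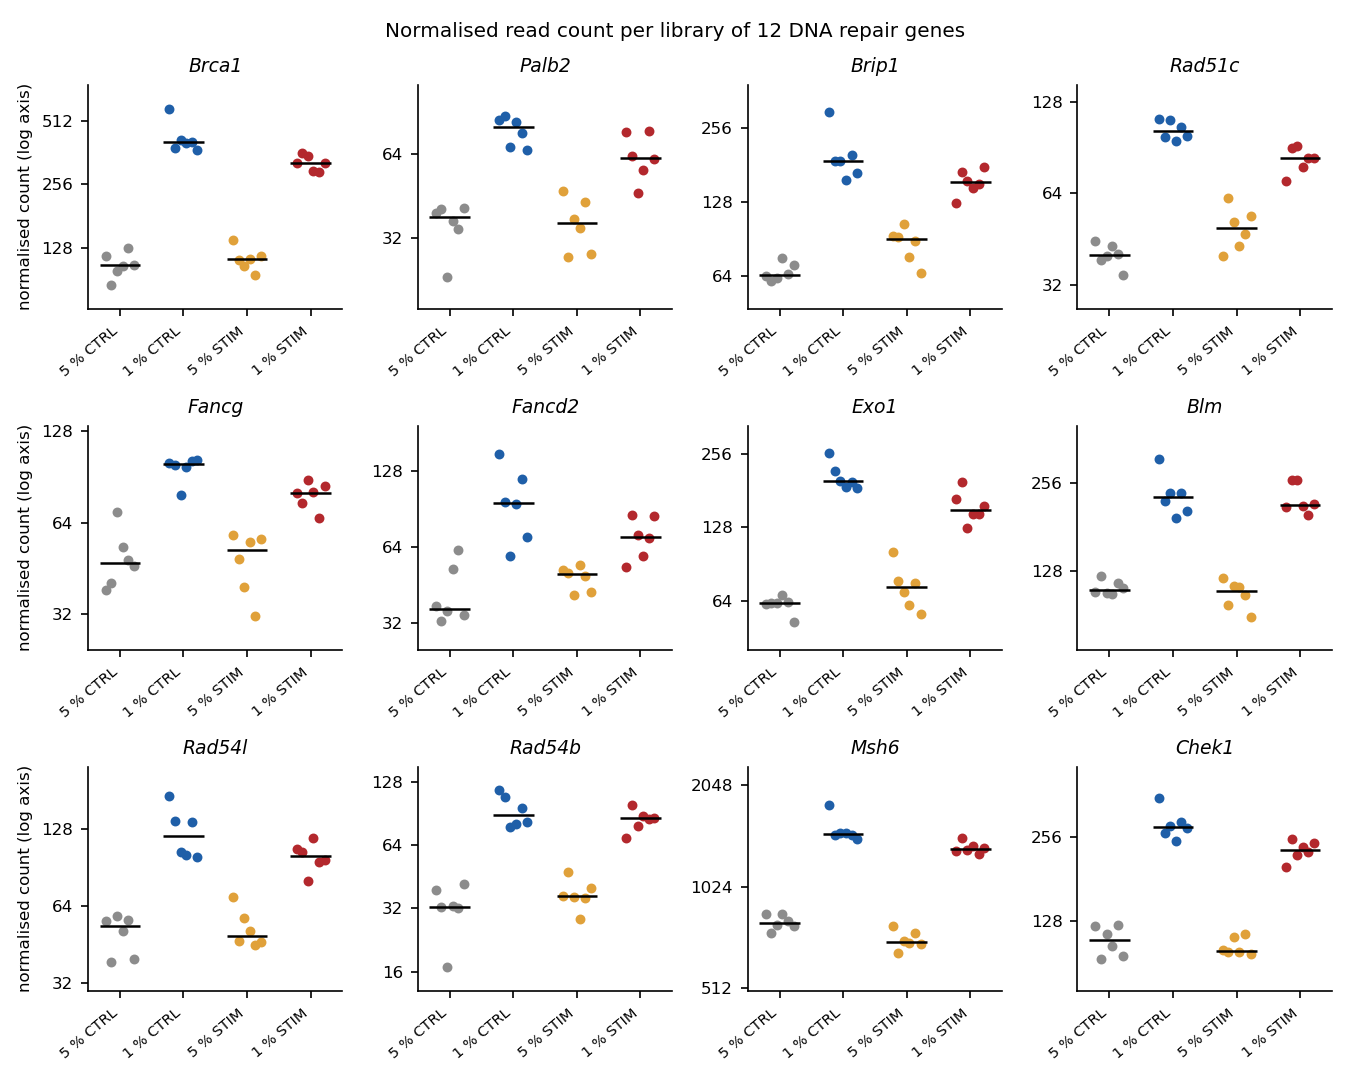
Normalised read count (log axis) of 12 members in each of 24 libraries, with 6 points per group and a bar at the group median. Each 1 % O2 median lies above that of the matching 5 % O2 group, with values that overlap in Fancd2 at rest and in Fancd2 and Palb2 with stimulation; the topmost 1 % CTRL point of Brca1, at 583, is replicate 1.

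The first comparison asked what 2 h at 1 % O2 did in resting myotubes. Of the 36 members, 31 rose and 2 fell, while 29.4 % of all genes tested rose, 30.5 % fell and 59.9 % did either (limma, adjusted p under 0.05). The median log2 fold change of the members was 0.71, against 0.00 over all genes tested. In 25 members every 1 % CTRL library lay above every 5 % CTRL library, which held for 18.2 % of all genes, and in 1 member every library lay below, which held for 19.9 %. The rise was at least 2-fold in 10 members, of which Blm fell below 2-fold without 1 % CTRL replicate 1 (log2 fold change 0.95). Without 1 % CTRL replicate 1 the counts were again 31 and 2, with a median of 0.67. In bulk RNA, a change in the number of cells that express a gene and a change in RNA per cell cannot be told apart.

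Among the mediators, which load the recombinase onto resected DNA, all 5 rose. Brca1, whose product forms a ubiquitin ligase with that of Bard1, had the largest change of any member. Its normalised count ranged from 85.4 to 128 with a median of 106 in 5 % CTRL, and from 370 to 583 with a median of 404 in 1 % CTRL. The groups were far apart, at 3.93-fold (log2 fold change 1.98 ± 0.10 SE, adjusted p = 6.1e-18), and the log2 fold change was 1.88 without 1 % CTRL replicate 1. Brip1, a helicase that binds BRCA1, went from 61.0 to 75.7 with a median of 64.9 in 5 % CTRL to 158 to 297 with a median of 189 in 1 % CTRL. That is 2.91-fold with no overlap (log2 fold change 1.54 ± 0.12, adjusted p = 2.5e-13). Palb2, which bridges BRCA1 and BRCA2, lay between 23.0 and 40.8 with a median of 38.1 at 5 % O2 and between 65.9 and 87.3 with a median of 79.6 at 1 % O2. The rise was 2.15-fold (log2 fold change 1.11 ± 0.15, adjusted p = 1.3e-07). Brca2, which carries the recombinase to the tail, rose 1.84-fold, and Bard1 1.36-fold.

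Of the recombinase paralogues, which act in small complexes that steady the recombinase filament, 4 rose and 1 fell. Rad51c, a subunit shared by both complexes, ranged from 34.5 to 44.6 with a median of 40.1 in 5 % CTRL and from 94.9 to 112 with a median of 102 in 1 % CTRL. It rose 2.54-fold without overlap (log2 fold change 1.35 ± 0.11, adjusted p = 7.3e-13). Xrcc3, its partner in one of them, rose 1.65-fold, while Rad51d and Xrcc2 rose 1.27-fold and 1.23-fold. Rad51b went the other way. Its values of 26.4 to 39.3 in 5 % CTRL and 16.3 to 31.7 in 1 % CTRL overlapped, and it fell by 0.62 on the log2 scale (SE 0.20, adjusted p = 0.0089).

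The Fanconi core, the ubiquitin ligase assembly of this pathway, was split. Fanca, Fancb, Fancg, Fancl and Fancm rose, and Fancc, Fance and Fancf did not pass the test. Fancg, an adaptor subunit, lay between 38.3 and 69.1 with a median of 47.2 at 5 % O2 and between 79.0 and 103 with a median of 99.6 at 1 % O2. It rose 1.97-fold (log2 fold change 0.98 ± 0.14, adjusted p = 2.1e-07), with no overlap. Fancb rose 1.77-fold, Fanca 1.69-fold, the catalytic subunit Fancl 1.27-fold and the DNA translocase Fancm 1.25-fold. The 95 % confidence interval of the log2 fold change was -0.18 to 0.07 for Fancc, -0.23 to 0.04 for Fance and -0.52 to 0.22 for Fancf, so a rise of the size seen in Fancg lies outside all 3. Both members of the ubiquitinated pair rose. Fancd2 ranged from 32.5 to 62.5 with a median of 36.5 in 5 % CTRL and from 59.0 to 149 with a median of 95.4 in 1 % CTRL, a wide spread that touched at its edges. Its log2 fold change was 1.16 ± 0.18 (adjusted p = 1.4e-06), and that of Fanci was 0.80 ± 0.19.

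Of the 5 members that sense and resect ends, 4 rose and 1 fell. Exo1, the exonuclease that extends resection and also serves mismatch repair, ranged from 52.3 to 67.5 with a median of 63.0 in 5 % CTRL and from 186 to 257 with a median of 197 in 1 % CTRL. It rose 3.29-fold (log2 fold change 1.72 ± 0.11, adjusted p = 6.2e-15), the second largest change of any member. The end-sensing complex rose by less, with Rad50 at 1.45-fold and both Mre11a and Nbn at 1.19-fold. Rbbp8, which starts resection together with that complex, fell. Its 578 to 655 in 1 % CTRL lay wholly below its 755 to 835 in 5 % CTRL, at 0.775-fold (log2 fold change -0.37 ± 0.04, adjusted p = 7.0e-09).

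All 3 helicases and translocases rose at least 2-fold, although Blm fell below 2-fold without 1 % CTRL replicate 1 (log2 fold change 0.95). Blm, the helicase that dissolves joined molecules, moved from 107 to 123 with a median of 110 in 5 % CTRL to 195 to 308 with a median of 228 in 1 % CTRL, at 2.04-fold (log2 fold change 1.03 ± 0.09, adjusted p = 1.6e-11). Rad54l, a translocase that drives strand exchange, moved from 38.6 to 58.7 with a median of 53.6 to 98.9 to 172 with a median of 120, at 2.44-fold (log2 fold change 1.29 ± 0.14, adjusted p = 7.7e-10). Rad54b, a related translocase, moved from 16.8 to 41.9 with a median of 32.6 to 78.0 to 117 with a median of 89.2, at 2.89-fold (log2 fold change 1.53 ± 0.16, adjusted p = 3.6e-10). None of the 3 overlapped between the groups. Exons of Fsbp on the same strand, together with an antisense gene model, cover 35.9 % of the exon bases of Rad54b, so reads there could have been split between them. Fsbp itself had a mean normalised count of 12.7 and 16.2 in these groups and did not pass the test (adjusted p = 0.26).

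The 3 mismatch repair members rose to different degrees. Msh6 ranged from 748 to 852 with a median of 798 in 5 % CTRL and from 1415 to 1789 with a median of 1467 in 1 % CTRL. It rose 1.87-fold with a small error (log2 fold change 0.91 ± 0.05, adjusted p = 1.9e-17). Pms2, the nicking subunit, rose 1.62-fold, and Msh3, the alternative recognition subunit, 1.24-fold. All 5 checkpoint members rose as well. Chek1, the kinase that halts the cycle at stalled forks, went from 93.6 to 124 with a median of 110 to 248 to 351 with a median of 278, at 2.59-fold (log2 fold change 1.37 ± 0.09, adjusted p = 9.9e-16). Topbp1, which switches on the kinase ATR, rose 1.76-fold and Atr itself 1.41-fold, while Chek2, an effector kinase, and Atm, the kinase called by broken ends, had log2 fold changes of 0.59 and 0.38.

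**Figure D2:**
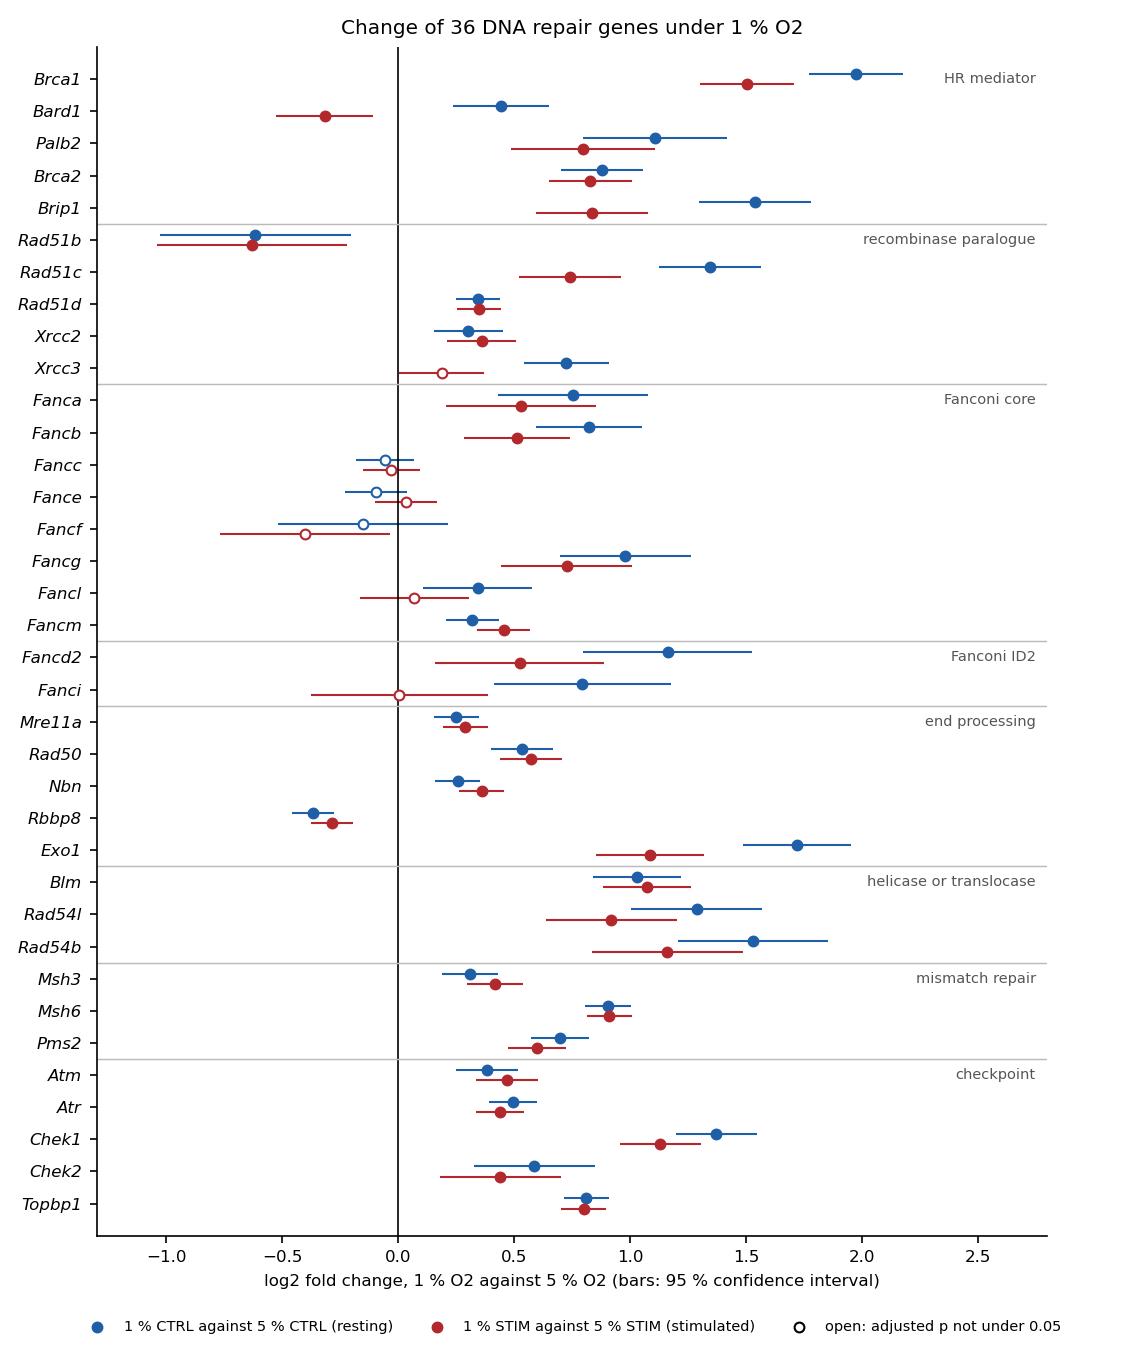
Log2 fold change under 1 % O2 of each of the 36 members, grouped by role, in resting (blue) and stimulated (red) myotubes, with 95 % confidence intervals; open points did not pass the test. Most points lie right of 0, from -0.63 to 1.98; Rad51b and Rbbp8 lie left of it in both comparisons and Bard1 in stimulated myotubes alone.

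The second oxygen comparison, 1 % STIM against 5 % STIM, contrasted none of the libraries of the first. All 4 groups shared 1 fit, so the tests of both used the same estimate of spread. Of the 36 members, 27 rose and 3 fell, while 29.0 % of all genes rose, 28.4 % fell and 57.4 % did either. The median log2 fold change was 0.49, against 0.00 over all genes tested. In 22 members every 1 % STIM library lay above every 5 % STIM library, against 18.7 % of all genes, and in 1 member every library lay below, against 18.7 %. The rise was at least 2-fold in 5 members, namely Brca1, Rad54b, Chek1, Exo1 and Blm. The members that fell were Rad51b (log2 fold change -0.63 ± 0.20), Rbbp8 (-0.29 ± 0.04) and Bard1 (-0.32 ± 0.10). Bard1 had risen at rest, and its partner Brca1 rose here, from 95.1 to 139 with a median of 113 in 5 % STIM to 292 to 361 with a median of 322 in 1 % STIM (2.83-fold, adjusted p = 9.9e-15). Xrcc3, Fancc, Fance, Fancf, Fancl and Fanci did not pass the test.

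Among the other members with full values, Exo1 went from 56.8 to 101 with a median of 72.7 in 5 % STIM to 127 to 197 with a median of 151 in 1 % STIM. Rad54b went from 28.6 to 47.7 with a median of 36.6 to 69.2 to 99.9 with a median of 86.2. Chek1 went from 98.0 to 116 with a median of 100.2 to 200 to 252 with a median of 230. These 3 members did not overlap between the groups. Blm went from 89.8 to 122 with a median of 110 to 199 to 261 with a median of 214, again apart. Rad54l went from 45.0 to 69.4 with a median of 48.9 to 79.9 to 118 with a median of 100.2. Msh6 went from 651 to 779 with a median of 699 to 1281 to 1429 with a median of 1323. Both stayed clear of the 5 % STIM range.
The smaller rises were those of Brip1, Rad51c, Fancg, Palb2 and Fancd2. Brip1 went from 66.0 to 104 with a median of 90.6 to 128 to 177 with a median of 155, and Rad51c from 39.8 to 61.8 with a median of 49.3 to 70.1 to 91.5 with a median of 83.8. Fancg went from 31.7 to 58.2 with a median of 51.9 to 66.4 to 88.6 with a median of 80.4. Neither these 3 nor any of the 6 members before them overlapped, while Palb2 (27.4 to 47.0 against 46.2 to 77.0, with medians of 36.1 and 62.1) and Fancd2 (41.4 to 54.2 against 53.6 to 85.2, with medians of 49.9 and 70.3) did at their edges.

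Set side by side, 34 of the 36 members had the same sign in both oxygen comparisons, 27 rose in both and 2 fell in both. The shares of all genes that did so are not given here. In the 2 comparisons 59.9 % and 57.4 % of all genes were called in either direction. Across the 36 members the changes at rest and with stimulation were related, with Pearson's r of 0.879 and Spearman's rho of 0.875. This is a relation across genes that share libraries and processing, and genes are not independent replicates. The 18 members with the lowest level per kb over all libraries had a median log2 fold change of 1.00 at rest and 0.73 with stimulation, and the 18 with the highest level 0.34 and 0.39. Against the level per kb in 5 % STIM, whose libraries the resting comparison does not use, the change at rest had r of -0.470 and rho of -0.567. The change with stimulation, against the level per kb in 5 % CTRL, had r of -0.201 and rho of -0.320. The change at rest was less related to exon length (r = 0.188, rho = 0.163) and to the span of the gene (r = -0.121, rho = -0.147).

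**Figure D3:**
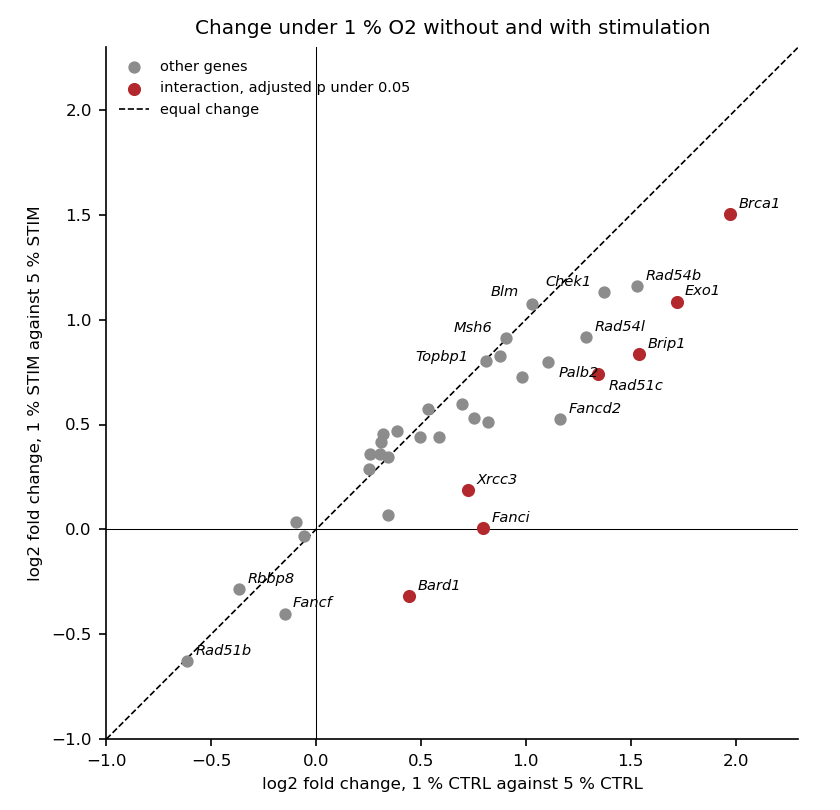
Log2 fold change under 1 % O2 in stimulated myotubes (vertical) against that in resting myotubes (horizontal), one point per member; the dashed line marks equal change and red points passed the interaction test. The 7 red points lie below the line, Bard1 below 0 on the vertical axis at -0.32 and Fanci near it at 0.01.

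Electrical stimulation alone did little to these genes by the time the cells were collected, immediately after it. In 5 % STIM against 5 % CTRL, 1 member rose and 3 fell, against 9.44 % and 12 % of all genes and 21.4 % in either direction, and no member had groups that stood apart, against 5.64 % of all genes above and 5.44 % below. Brip1 rose 1.29-fold, from 61.0 to 75.7 in 5 % CTRL to 66.0 to 104 in 5 % STIM (log2 fold change 0.36 ± 0.12, adjusted p = 0.025). Msh6 fell by 0.18 on the log2 scale (SE 0.05, adjusted p = 0.0067), from 748 to 852 down to 651 to 779. Xrcc2 and Topbp1 fell by 0.20 and 0.13 (adjusted p = 0.042 and 0.047). With libraries scaled to the same total, 2 rose and 1 fell. The calls of Brip1, Xrcc2 and Topbp1 were lost under other settings, and that of Msh6 was lost under none of the 12 alternatives or 24 omissions of a library.

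Under 1 % O2 more of them were lower in the stimulated group. If the CTRL groups lacked the later medium change, its part here and in the interaction cannot be told from that of stimulation. In 1 % STIM against 1 % CTRL, 10 members fell, namely Brca1, Bard1, Brip1, Rad51c, Xrcc3, Fanci, Exo1, Msh6, Chek1 and Topbp1, while 10.8 % of all genes fell and 22.3 % did either. No member rose in limma, edgeR, limma voom or DESeq2, at an adjusted or an unadjusted p under 0.05, while 11.5 % of all genes rose in limma. In Brca1, Bard1, Rad51c and Xrcc3 every 1 % STIM library lay below every 1 % CTRL library, against 5.91 % of all genes, and in no member did every library lie above, against 5.29 %. Xrcc3 fell most, by 0.74 on the log2 scale (SE 0.09, adjusted p = 6.7e-08), from 174 to 240 in 1 % CTRL to 99.2 to 140 in 1 % STIM. The latter values overlapped the 103 to 141 of resting myotubes at 5 % O2. Bard1 fell by 0.62 (SE 0.10, adjusted p = 1.7e-05), from 106 to 147 down to 68.4 to 92.1, with 77.3 to 102 in 5 % CTRL. Fanci fell by 0.64 (SE 0.19, adjusted p = 0.011), Exo1 by 0.41 (SE 0.11, adjusted p = 0.0080) and Brca1 by 0.38 (SE 0.10, adjusted p = 0.0041). Without 1 % CTRL replicate 1, 8 members fell, and Brip1, Rad51c and Topbp1 did not pass the test (adjusted p = 0.125, 0.059 and 0.0963).

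The interaction, the response to stimulation under 1 % O2 minus that under 5 % O2, tests whether the oxygen level changed the response. It was negative in 7 members and positive in none, against 5.43 % and 5.88 % of all genes and 11.3 % in either direction, and no positive value had an unadjusted p under 0.05 in limma, edgeR, limma voom or DESeq2. Fanci had an interaction of -0.79 ± 0.26 (adjusted p = 0.048), Bard1 of -0.76 ± 0.14 (adjusted p = 0.00038) and Brip1 of -0.70 ± 0.17 (adjusted p = 0.0045). Exo1 stood at -0.63 ± 0.16 (adjusted p = 0.0082), Rad51c at -0.60 ± 0.15 (adjusted p = 0.0076), Xrcc3 at -0.54 ± 0.13 (adjusted p = 0.0045) and Brca1 at -0.47 ± 0.14 (adjusted p = 0.025). They come from the mediators, the recombinase paralogues, the ubiquitinated pair and resection. Without 1 % CTRL replicate 1 the count was 6, with Fanci lost (adjusted p = 0.060). The Fanci call was lost in 19 of the 24 omissions of a library and the Brca1 call in 1, that of 5 % CTRL replicate 2. In limma voom the interaction was called in 5 members, without Brca1 (adjusted p = 0.0648), in edgeR in 6 and in DESeq2 in 7. Bard1, Brip1, Rad51c, Xrcc3 and Exo1 kept adjusted p values of at most 0.0186 under every omission. Fancd2, partner of Fanci, had an interaction of -0.64 that did not pass the test (adjusted p = 0.10), and no mismatch repair or checkpoint member passed it.

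**Figure D4:**
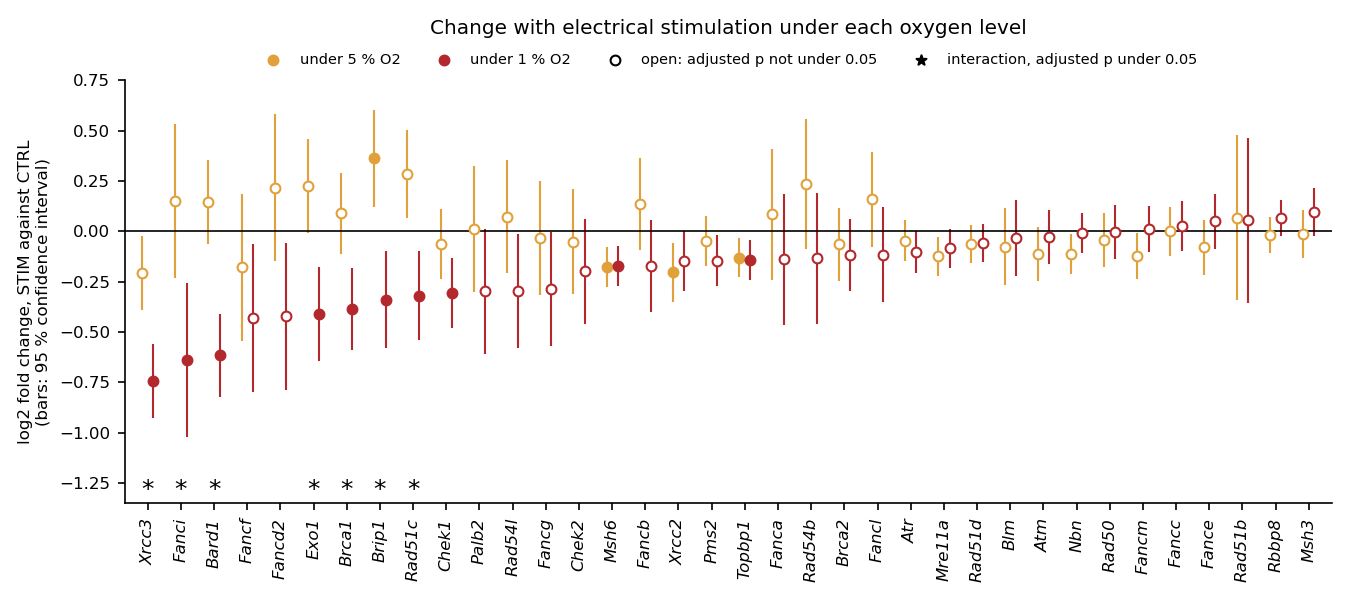
Log2 fold change with electrical stimulation of each member under 5 % O2 (orange) and under 1 % O2 (red), ordered by the latter, with 95 % confidence intervals; open points did not pass the test and asterisks mark an interaction. The 7 members with an asterisk lie toward the left, where the red values run from -0.74 in Xrcc3 to -0.32 in Rad51c.

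Of 57 further recombination and Fanconi genes tested, from a list of 59, 32 rose and 8 fell at rest, with a median log2 fold change of 0.25. Timeless, a fork protection protein, rose from a mean normalised count of 117 to 415, Fignl1, which acts on the recombinase filament, from 148 to 397, and Clspn, an adaptor of the checkpoint kinase CHK1, from 193 to 648. Rad52, an annealing protein, fell from 442 to 336, Rnf8, a ubiquitin ligase at breaks, from 528 to 421, and Atrip, the partner of ATR, from 521 to 433. Of 16 end-joining genes, which seal breaks without a template, 11 rose and 2 fell, with a median of 0.25. Polq, the polymerase of microhomology joining, rose from 112 to 179, Prkdc, the kinase of classical end joining, from 355 to 519, and the ligase Lig4 fell from 926 to 709. Of 33 nucleotide and base excision repair genes, 14 rose and 6 fell (20 and 5 with libraries scaled to the same total), with a median of 0.04. Under that scaling the median log2 fold change of all genes tested was 0.08 at rest, against 0.00 without it. For 1 % STIM against 5 % STIM that median was 0.07 under the same scaling. Counts under this scaling, here and below, have no share of all genes beside them. Ung, the uracil glycosylase, rose from 33.1 to 105, and Ercc6, which couples repair to transcription, fell from 1424 to 807.

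Of 47 DNA replication and S phase genes, 45 rose and 2 fell at rest, with a median of 1.09. Cdc6, which licenses origins, rose from 75.7 to 632, Chaf1b, a histone chaperone subunit, from 56.7 to 315, and Uhrf1, which maintains DNA methylation, from 384 to 2104. E2f2 and E2f8, both E2F factors, fell from 6083 to 2938 and from 1518 to 1117. In 1 % STIM against 1 % CTRL 33 of these 47 genes fell and 1 rose, and their interaction was negative in 8 and positive in 1. Genes of G2 and M split, with 10 of 30 up and 9 down and a median of -0.02, and with libraries scaled to the same total 11 were up and 3 down. The summed normalised count of these 30 genes ranged from 11544 to 12816 in 5 % CTRL, with a median of 12227. In 1 % CTRL it ranged from 11568 to 16507, with a median of 12199. The sum of the 47 replication genes ranged from 29990 to 31789 and from 46447 to 56854 in these groups, without overlap. Of 26 targets of p53, the damage-responsive transcription factor, 8 rose and 8 fell at rest (11 and 5 with the same total). In 5 % STIM against 5 % CTRL 11 of them rose and 4 fell, against 9.44 % and 12 % of all genes. In 1 % STIM against 1 % CTRL 12 of them rose and 3 fell, against 11.5 % and 10.8 % of all genes. At rest 15 targets of the hypoxia factor HIF gave 14 up and 1 down (14 and 0 with the same total). Their median was 1.71. In 1 % STIM against 1 % CTRL 14 of these 15 HIF targets fell and 0 rose, with a median of -0.41. Their interaction was negative in 10 and positive in 1, with a median of -0.37. A fall with stimulation under 1 % O2 was thus not limited to repair and replication genes. The part of S phase entry, of the HIF response or of cell makeup in the members' changes was not tested.

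**Figure D5:**
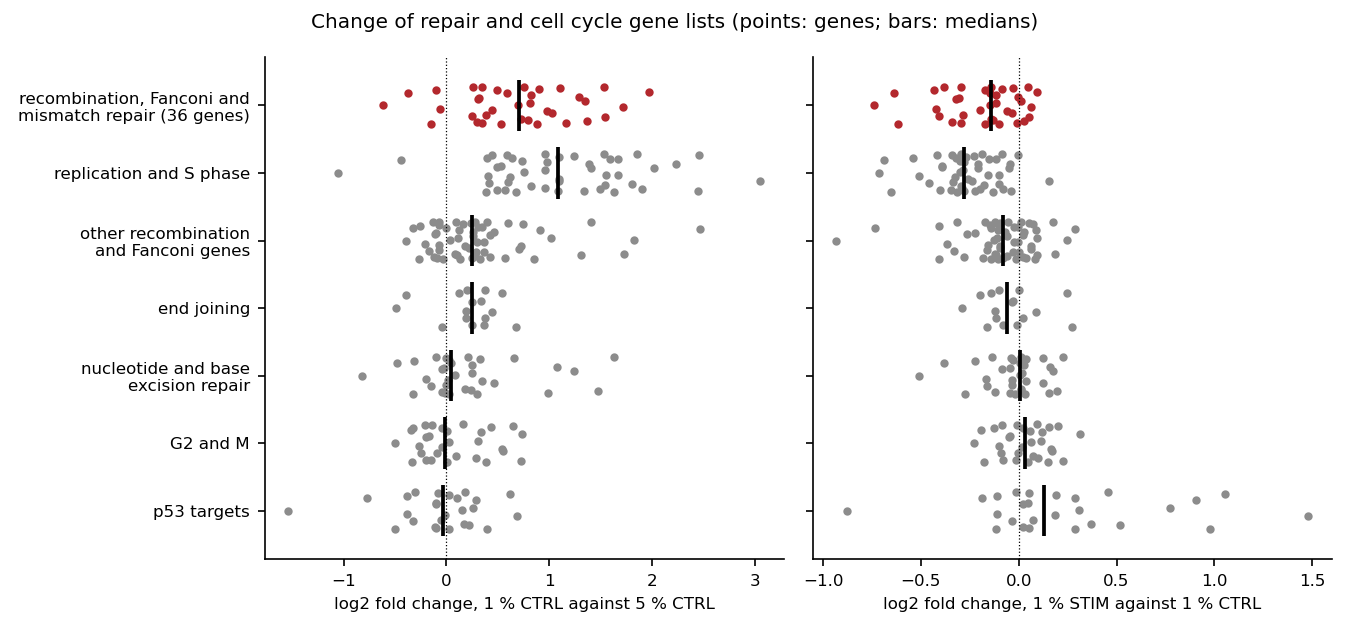
Log2 fold change of each gene (points) and list median (bar) at rest under 1 % O2 (left) and with stimulation under 1 % O2 (right), 2 comparisons that share the 1 % CTRL libraries. The 36 members (red, medians 0.71 and -0.14) lie between the other recombination and Fanconi genes (0.25 and -0.08) and the replication and S phase genes (1.09 and -0.28).

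Marker genes describe the cells. All 30 myotube markers were tested, and their summed normalised count ranged from 1033533 to 1119483 in 5 % CTRL and from 965151 to 1062375 in 1 % CTRL. Of these, 3 rose and 12 fell at rest (7 and 6 with the same total). The 16 myoblast markers summed to 86556 to 92920 and 82132 to 86645, with 4 up and 7 down. In 1 % STIM the myoblast sum ranged from 74731 to 80061, wholly below 1 % CTRL, with 4 of the 16 up and 8 down against that group, and the myotube sum ranged from 960021 to 1027498, with 0 of 30 up and 5 down (2 and 4 with the same total). Against 5 % STIM, whose sums ranged from 84373 to 89473 and from 957430 to 1097609, 3 myoblast markers rose and 10 fell, and 4 myotube markers rose and 15 fell (5 and 9 with the same total). Of 16 markers of other cell types, 7 passed the filter, of which 1 rose and 4 fell at rest. In each group 9 of the 16 had a mean under 10. Ptprc, Adgre1, Epcam, Adipoq and Plin1, markers of blood, macrophage, epithelial and fat cells, had a mean under 1 in every group. The values of Cd68, Cdh1 and Pparg, also in this list, are not given here, so the absence of such cells does not follow. Fibroblast and smooth muscle markers that C2C12 cells also express, such as Col1a1 and Acta2, made up most of the sum of this list, which ranged from 136503 to 155489 in 5 % CTRL and from 144230 to 154722 in 1 % CTRL. The part of these differences in the members' change was not tested.

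The kit kept the strand, but the counting ran at default settings, which do not use it, so reads from an antisense neighbour could enter a member's count. Exons of another gene cover at least 5 % of the exon bases of 11 members and under 1 % of those of 20. Polg, opposite 16 % of Fanci, changed by -0.15 on the log2 scale at rest while Fanci changed by 0.80. Lrrc41, opposite 15.4 % of Rad54l, changed by -0.21, and Zfp276, opposite 10.5 % of Fanca, by -0.63. For Fancl the neighbour moved the same way. Vrk2, opposite 13.7 % of it, had a log2 fold change of 0.57, against 0.34 in Fancl.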

How the data were processed

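RNA of C2C12 myotubes was made into 24 stranded mRNA libraries (TruSeq). The submitters' processing notes name the read checker FastQC 0.11.7, the aligner STAR 2.5.4b, the counter RSEM 1.3.0 and the build GRCm38; the study's methods give RSEM's default settings, which do not use strand. The deposited signal values are gene counts that the authors divided by a size factor per library. The factor could be recovered from the steps between low values, and multiplying by it gave whole reads for 100 % of values (tolerance 0.001), 26541858 to 28173745 per library. Size factors were 0.955 to 0.992 in the 5 % O2 groups and 1.02 to 1.05 in the 1 % O2 groups. A second deposited table holds the authors' own comparisons (fold changes, average expression, test statistics, p-values and calls) and was not used.

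Genes with a normalised count of at least 10 in at least 6 libraries were kept, and limma 3.58.1 (R 4.3.3; trend and robust moderation) was fitted to log2(normalised count + 1) over all 4 groups, with Benjamini-Hochberg adjusted p under 0.05 over all 14541 genes. Fold changes are on that scale, which understates those of low genes. The code was tested on simulated data with 200 changed genes. Exon lengths came from the GENCODE M21 annotation, in which 55227 of the 55487 listed genes were found, and upstream sequences from RefSeq. Alternatives changed the pseudocount (10), the filter, the threshold (0.01), the samples fitted, the scaling, a loess length trend (span 0.5), library weights, the replicate block and the tool (edgeR 4.0.16 quasi-likelihood, limma voom and DESeq2 1.42.0 on the whole reads), and each library was left out in turn.

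The members and the gene lists were chosen with earlier results of these data known. All members are named by role. Lowest, median and highest values are given for the 12 called members with the largest changes and at least 1 member per role. Of each other list, up to 3 called genes that rose most and 3 that fell most at rest could be named if either group mean reached 100; neighbours and markers named beyond this were chosen after their values were seen. Among the other recombination genes 57 of 59 symbols matched.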

Additional observations from a re-analysis of the deposited data

Results flagged for a closer look

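In 7 of 48 groups of the 12 members with full values, 1 library lay far from the other 5 of its group; chance gives about 5 % of groups. In 1 % CTRL, replicate 1 was the highest library for Brca1 at a normalised count of 583 (others 370 to 415), for Brip1 at 297 (158 to 199), for Blm at 308 (195 to 236) and for Msh6 at 1789 (1415 to 1479). In the same group, replicate 3 was the lowest for Fancg at 79.0 (97.8 to 103). In 5 % CTRL, replicate 3 was the lowest for Palb2 at 23.0 (34.3 to 40.8) and replicate 6 for Exo1 at 52.3 (62.2 to 67.5).

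The response to stimulation differed between the oxygen levels by the interaction test in 7 members. The log2 response under 1 % O2 minus that under 5 % O2 was -0.79 in Fanci, -0.76 in Bard1, -0.70 in Brip1, -0.63 in Exo1, -0.60 in Rad51c, -0.54 in Xrcc3 and -0.47 in Brca1.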

How the results depend on the processing

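No called member changed direction under the alternatives or when any 1 library was left out. At rest, 31 members rose and 2 fell under each omission and under the replicate block, and a minimum count of 50 left 1 of those that fell; Fancl lost its call at an adjusted p under 0.01. In stimulated myotubes 27 to 28 rose and 3 to 4 fell when libraries were left out, and Fancd2 lost its call at 0.01. The response to stimulation under 5 % O2 was the least settled, with 0 to 2 rising and 1 to 4 falling when libraries were left out. There the count that rose was 0 without 5 % CTRL replicate 2 or 3 or 5 % STIM replicate 2 or 3 and 2 without 5 % CTRL replicate 1 or 5 % STIM replicate 4, and the count that fell was 1 without 5 % CTRL replicate 4 or 5 or 5 % STIM replicate 2, 3 or 5. The count that rose was 0 at an adjusted p under 0.01, in edgeR and in limma voom, and 2 with a minimum count of 50 or the same total. The count that fell was 1 at 0.01, without a filter, with the same total, in limma voom and in DESeq2, and 5 with the length trend removed. In 1 % STIM against 1 % CTRL 0 rose and 7 to 11 fell when libraries were left out, and 6 fell at 0.01. The interaction was negative in 5 to 8 and positive in 0. The cause of these differences was not tested. Replicate numbers recur between groups, and the correlation of same-numbered libraries ranged from -0.148 to 0.155 over 36 pairs, with 2 over 0.1. Correlations of differently numbered libraries are not given here, and whether same-numbered libraries shared a passage or day of culture was not tested. With the replicate block 1 rose and 3 fell under 5 % O2, and 27 rose and 3 fell in stimulated myotubes. With that block 10 fell in 1 % STIM against 1 % CTRL and 6 had a negative interaction, Fanci losing its call. Depth was similar in all libraries, and the widest intervals were those of Rad51b, Fanci, Fancf and Fancd2, whose mean normalised counts in 5 % CTRL were under 50.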
